A study of Mus musculus with 18 samples.

Results

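The genes described here are the mouse proteasome genes in RNA sequencing of kidneys after unilateral ischemia and reperfusion (UIR) or a sham operation. They were chosen by symbol: Psma, Psmb, Psmc, Psmd, Psme, Psmf or Psmg followed by a digit, leaving out the immunoproteasome subunits Psmb8, Psmb9 and Psmb10, with FPKM (a level per transcript length and sequencing depth, counted in fragments) of at least 1 in at least 3 of 18 libraries. The deposited table has 20825 rows, of which 47 matched the symbols and 45 passed the filter. The others were Psma8, the alpha subunit of testis, at 0 to 0.35 FPKM, and Psmb11, the beta subunit of thymus, at 0.16 to 0.86 FPKM. Over all rows, 14716 genes passed the same filter and were tested.

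All mice were C57BL/6 at postnatal week 11. In UIR mice the pedicle of the right kidney was clamped for 45 minutes under isoflurane and the left kidney was kept, whereas sham mice were not clamped. Kidneys were taken after 1, 3 or 21 days, with 3 libraries named as biological replicates for each treatment and day, so 18 libraries fell into 6 groups. The labels name neither the sex nor the kidney that was sequenced. FPKM sums ran from 424207 to 549490 per library. The depth in reads is unknown. Markers of the thick ascending limb (Umod and Slc12a1) summed to 661 to 1048 FPKM in the sham libraries. Of 3 adrenal genes, Cyp11b1 was listed at 0 in every sham library, Cyp11a1 at 0 to 0.04 FPKM and Star at 0.94 to 1.35 FPKM. In UIR libraries these genes reached 0.08, 0.22 and 2.33 FPKM.

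The proteasome degrades proteins tagged with ubiquitin. Its 20S core is a stack of alpha rings around beta rings, and Psmb5, Psmb6 and Psmb7 carry the cleaving sites. The 19S regulatory particle caps the core: its lid holds the deubiquitinase Psmd14, and its base holds the Psmc ATPases that unfold the substrate, the scaffolds Psmd1 and Psmd2 and the ubiquitin receptor Psmd4. Other caps (Psme1 with Psme2, Psme3, Psme4) can replace it, Psmf1 inhibits the core, and chaperones assemble the core (Psmg1 to Psmg4) and the 19S base (Psmd5, Psmd9, Psmd10). In immune activation Psmb8, Psmb9 and Psmb10 replace Psmb5, Psmb6 and Psmb7. When proteasome activity falls, the transcription factor NRF1 (Nfe2l1) is known to raise proteasome genes through antioxidant response elements.

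The 45 genes comprised 7 alpha subunits, 7 beta subunits, 6 ATPases, 3 other base subunits and 8 lid subunits. These 31 are subunits of the 26S proteasome, so the name "constitutive proteasome subunits" covers 31 of the 45. The rest were 3 base chaperones, 4 core chaperones, 6 activators or inhibitors, and Psmc3ip, which matches by symbol only and encodes a cofactor of homologous recombination. Psme2b is a near-identical copy of Psme2, so both are uncertain as single genes. The 26S subunits Adrm1 and Shfm1 lie outside the symbols.

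Promoters are shown because the known route of proteasome gene control runs through them. In the RefSeq promoter table of build GRCm38.p6 (300 bases, 250 of them before the annotated start), 38 of the 45 genes were found by Entrez Gene ID. The antioxidant response element core TGACNNNGC, sought on both strands, occurred in 6 of these (15.8%) and in 13.99% of 27025 genes with a promoter. The 5 of the 6 promoter stretches that lie before the start read as follows, 5′ to 3′ on the strand of the gene, with the match in capitals (reverse complement for Psmc6 and Psmd12).
Psmb5: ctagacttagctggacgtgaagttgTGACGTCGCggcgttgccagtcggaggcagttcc
Psmb6: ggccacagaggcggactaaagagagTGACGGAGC
Psmd9: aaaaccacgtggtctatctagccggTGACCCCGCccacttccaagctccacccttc
Psmc6: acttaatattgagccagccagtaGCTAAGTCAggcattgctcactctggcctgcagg
Psmd12: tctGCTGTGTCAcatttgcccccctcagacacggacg
They lie at chr14:54618009-54618067 (minus strand, match from base -47 relative to the start), chr11:70525323-70525356 (plus, -9), chr5:123228134-123228189 (plus, -31), chr14:45329574-45329630 (plus, -227) and chr11:107479278-107479314 (plus, -247). In Psme4 the match begins at base -7 and runs over the start. The heat shock element core GAANNTTC was in the promoters of Psmb5 and Psmf1, 2 of 38 (5.26%), against 9.04% of all genes. CCAAT, the NF-Y box, was in 13 of 38 (34.2%), against 41.1% of all genes. A match describes these letters only, and each share lay near or below that of all genes.

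In median FPKM over the 18 libraries the genes ran from Psma4 (127), Psmb7 (122) and Psmd8 (111) down to Psme2b (2.40) and Psmc3ip (2.24). On deposited FPKM, 23 of the 31 subunits had their highest group mean in UIR kidneys at day 1 and 24 their lowest in UIR kidneys at day 21. These counts were made neither over all genes nor on the other scales. As a share of the FPKM sum, the core genes made up 0.236% in sham and 0.237% in UIR kidneys at day 21. On the log2(FPKM + 1) scale the correlation of a gene with the mean of the other 44 over 18 libraries had a median of 0.69, against -0.04 for all genes with the mean of the 45. The libraries share their scaling, so these values are descriptions. Psmb2 (0.89), Psmd13 (0.88) and the ATPase Psmc3 (0.87) followed the mean most closely. Psme2b (-0.64), Psmg1 (-0.28) and Psmg2 (-0.26) ran against it.

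**Figure D1:**
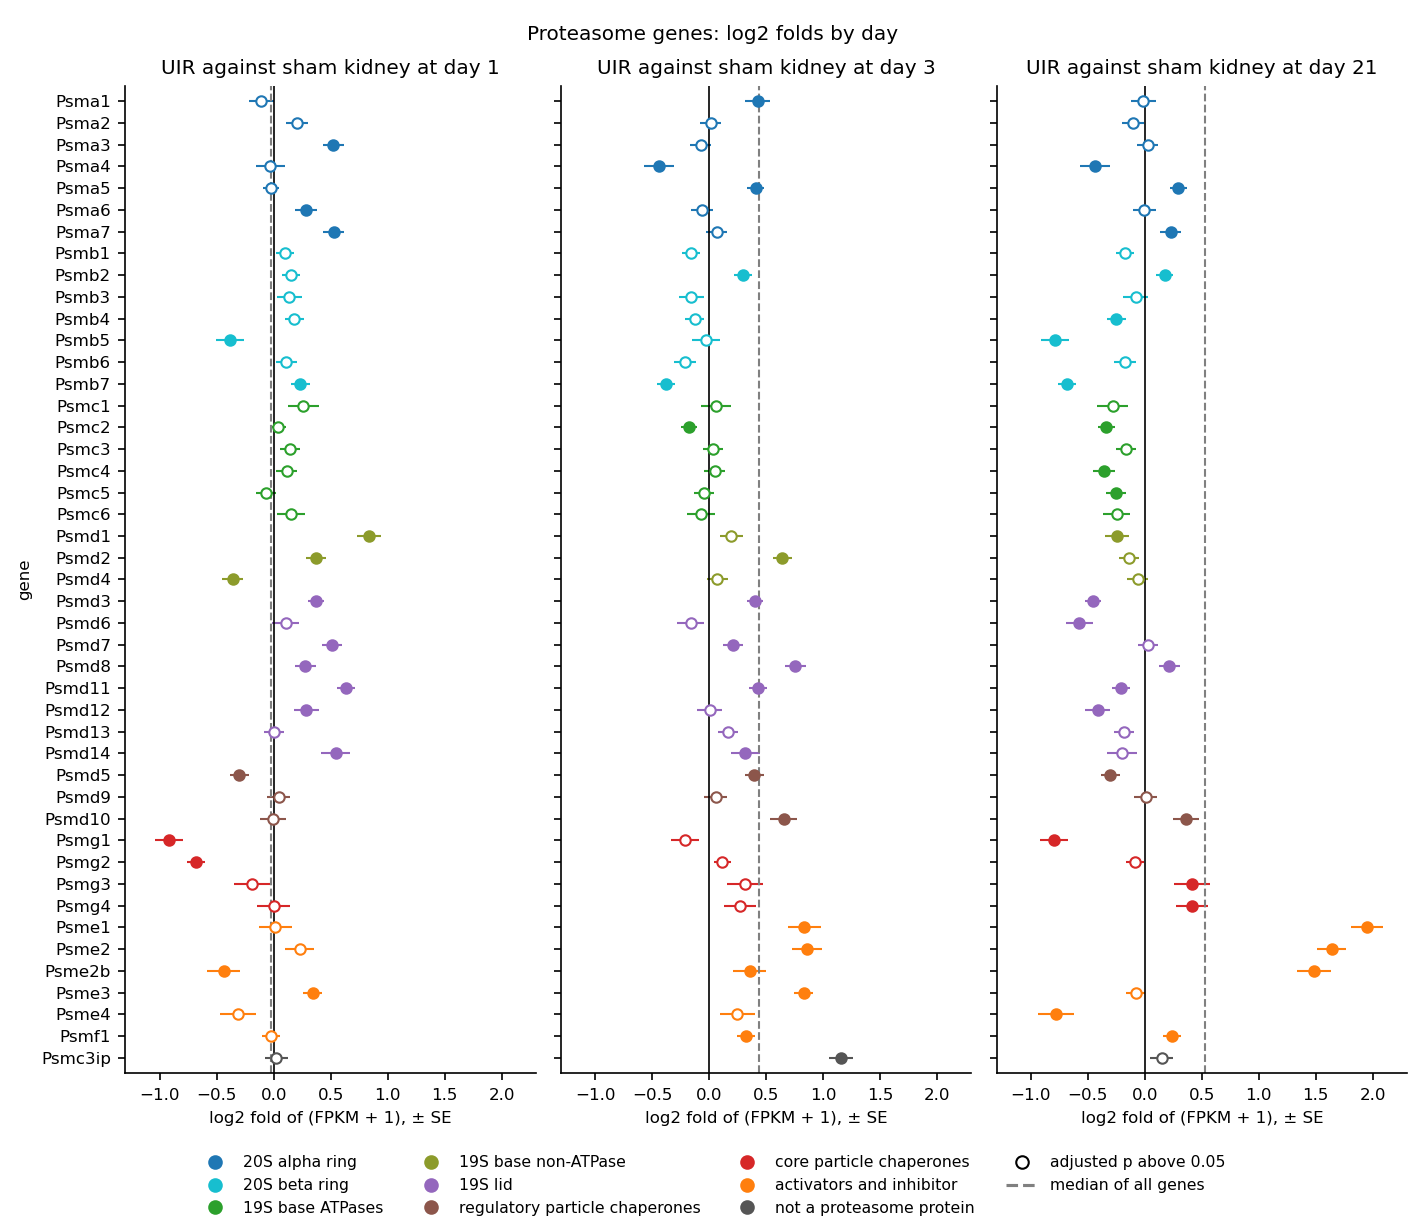
Log2 fold of (FPKM + 1), UIR against sham, for the 45 genes at days 1, 3 and 21, with SE bars and colours for the structural groups. Filled points passed the limma threshold, the solid line is 0 and the dashed line is the median of all genes tested, which lies at -0.03, 0.44 and 0.53. On this scale the median of the lid genes (purple) is 0.33 at day 1 and -0.21 at day 21, and Psme1, Psme2 and Psme2b stand alone at day 21.

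One day after clamping, subunits of the 19S lid and several of the 20S alpha ring rose, while the core chaperones Psmg1 and Psmg2 fell. By limma with Benjamini-Hochberg adjustment over 14716 genes (threshold 0.05), 13 of the 45 genes rose (28.9%) and 6 fell (13.3%), where 28.5% of all genes rose and 31.1% fell. The share that rose was near that of all genes, and the share that fell was smaller. The median log2 fold was 0.11, against -0.03 over all genes. In these whole-kidney libraries fewer cells of a type and less RNA per cell cannot be told apart.

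By structure, 6 of 8 lid genes rose and none fell at day 1, with a median log2 fold of 0.33, and the count was also 6 under each of 3 other scales between libraries. Psmd11 (0.63), Psmd14 (0.54), Psmd7 (0.51), Psmd3 (0.37), Psmd12 (0.28) and Psmd8 (0.28) rose. In the base, the scaffolds Psmd1 (0.84) and Psmd2 (0.37) rose and the receptor Psmd4 fell by 0.36, whereas 0 of 6 ATPases passed the threshold (log2 folds -0.06 to 0.26). In the alpha ring Psma7 (0.53), Psma3 (0.52) and Psma6 (0.29) rose, 3 of 7. Of the 7 beta subunits Psmb7 rose (0.23) and Psmb5 fell by 0.38, and the other 5 lay between 0.10 and 0.18 without passing. Of the alternative caps Psme3 rose (0.34) and Psme2b fell by 0.44, and the base chaperone Psmd5 fell by 0.30.

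Psmd1, the largest base scaffold, was at 64.4, 59.4 and 61.9 FPKM in the sham day-1 libraries and at 96.1, 128 and 112 FPKM in the UIR day-1 libraries. Every UIR library lay above every sham library, with a log2 fold of 0.84 ± 0.10 (1.79 times, limma adjusted p = 4.34e-06). Psmd11, a lid subunit that binds the base, was at 94.7, 77.01 and 92.4 FPKM in sham and at 133, 136 and 141 FPKM in UIR kidneys at day 1, again without overlap (0.63 ± 0.08, limma adjusted p = 5.46e-06). Psmd14, the deubiquitinase that removes ubiquitin from the substrate, was at 28.5, 30.2 and 30.0 FPKM in sham and at 36.8, 51.5 and 43.6 FPKM in UIR kidneys. Its groups did not overlap either, and the lowest UIR value was that of replicate 1 (0.54 ± 0.13, limma adjusted p = 0.00183).

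Psmg1, a chaperone of alpha ring assembly, was at 20.3, 23.7 and 17.8 FPKM in sham and at 10.3, 8.48 and 12.6 FPKM in UIR kidneys at day 1. All UIR values lay below all sham values, and it fell by 0.92 ± 0.12 on the log2 scale (limma adjusted p = 8.71e-06). Its partner Psmg2 was at 15.6, 16.7 and 15.7 FPKM in sham and at 8.80, 9.57 and 10.6 FPKM in UIR kidneys. It too fell without overlap, by 0.68 ± 0.08 (limma adjusted p = 2.22e-06), while Psmg3 (-0.19, adjusted p = 0.328) and Psmg4 (adjusted p = 0.998) did not pass. Psme2b was at 1.22, 1.14 and 0.89 FPKM in sham and at 0.67, 0.43 and 0.51 FPKM in UIR kidneys, so its fall of 0.44 ± 0.15 (limma adjusted p = 0.0175) rests on values near or under 1 FPKM.

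The catalytic subunits differed from each other at day 1. Psmb5, with chymotrypsin-like activity, was at 150.2, 136 and 155 FPKM in sham and at 108, 95.1 and 138 FPKM in UIR kidneys, so UIR replicate 3 lay within the sham range although the gene fell by 0.38 ± 0.12 (limma adjusted p = 0.0134). Psmb7, with trypsin-like activity, was at 134, 123 and 134 FPKM in sham and at 146, 164 and 151 FPKM in UIR kidneys, without overlap (0.23 ± 0.08, limma adjusted p = 0.0196). Psmb6, with caspase-like activity, was at 109, 106 and 108 FPKM in sham and at 112, 106 and 132 FPKM in UIR kidneys, where the groups overlapped and the log2 fold of 0.11 ± 0.10 did not pass (limma adjusted p = 0.331).

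Over all 45 genes, 16 had every UIR library above every sham library at day 1 and 5 had it below, where 29.5% and 31.7% of all genes did. Of the 19 calls 13 held when any 1 of the 6 libraries compared was left out. The call was lost for Psma6 without sham replicate 2, for Psmb5 without sham replicate 3 or UIR replicate 2, and for Psmb7 without sham replicate 2 or UIR replicate 2. It was also lost for Psmd12 without sham replicate 2, sham replicate 3 or UIR replicate 2, for Psmd8 without sham replicate 2 or UIR replicate 1, and for Psme2b without sham replicate 1 or UIR replicate 2.

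The sham kidneys themselves differed between days. Against sham kidneys at day 1, the sham kidneys at days 3 and 21 together had 17 of the 45 genes lower (37.8%) and 2 higher (4.44%) by limma, where 31.9% of all genes were lower and 14.1% higher. All 14 of the 31 subunits that changed were lower later, as were 20 on the TPM scale and 15 on the quantile scale, whereas 7 were lower and 2 higher with median-of-ratios scaling. Psmd11 fell by 0.94 ± 0.07, Psmd4 by 0.92 ± 0.08, Psmd8 by 0.86 ± 0.08, Psma5 by 0.49 ± 0.06 and Psmb5 by 0.46 ± 0.11. Psme2b (0.79) and Psmc3ip (0.39) were higher later, both at under 5 FPKM in sham kidneys. The median of the 45 was -0.17 and that of all genes -0.11, and over the 45 genes 8 were lower and 6 higher with median-of-ratios scaling.

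Psmd4 shows how far this control matters, since its fall at day 1 reverses with the later sham kidneys. It was at 149, 123 and 135 FPKM in sham kidneys at day 1, at 98.0, 99.1 and 119 FPKM in UIR kidneys at day 1 and at 66.1 to 79.0 FPKM in the 6 later sham libraries. UIR day-1 kidneys thus lay below sham kidneys of their own day and above those of later days (log2 fold 0.56 ± 0.08). Psmd11 was at 42.7 to 48.0 FPKM in the later sham libraries, so its UIR day-1 level was 2.98 times theirs (1.57 ± 0.07). Psmd8, a lid subunit, was at 160, 126 and 155 FPKM in sham and 195, 176 and 163 FPKM in UIR kidneys at day 1, and at 76.1 to 85.5 FPKM in later sham kidneys. Against the later sham kidneys 25 of 31 subunits were higher in UIR kidneys at day 1 and none lower (18 to 27 and none on the other 3 scales), and 29 of the 45 genes were higher (64.4%), where 39.6% of all genes were. It left 6 genes lower (13.3%), where 32.0% of all genes were, among them Psmg1 (-1.10) and Psmg2 (-0.71). The choice of sham day turned Psma5 from -0.02 to 0.47, Psmc5 from -0.06 to 0.19, Psmf1 from -0.03 to 0.37 and Psmb5 from -0.38 to 0.07. In the sham kidneys the summed proximal tubule markers were 1664 to 1865 FPKM at day 1 and 3846 to 4747 FPKM later, and S100a8, S100a9 and Ly6g, listed as neutrophil markers, summed to 17.4 to 61.2 and 3.65 to 8.84 FPKM. UIR kidneys at day 1 had 645 to 1617 and 94.0 to 160.3 FPKM. Slc34a1 made up most of the tubule sum (952.5 to 1104.5 FPKM in sham kidneys at day 1, 2677 to 3252 later). Slc22a6, alone of these markers, had overlapping ranges in sham kidneys (437 to 472 and 343.6 to 485.5 FPKM). Of the 6 proximal tubule markers 2 fell and none rose in UIR kidneys at day 1. S100a8 and S100a9 carried the neutrophil marker sum, while the lineage marker Ly6g was lower in UIR kidneys at day 1 (1.19 to 1.82 FPKM, against 4.15 to 5.07 in sham). The part of these cells in the day-1 and sham values was not tested.

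**Figure D2:**
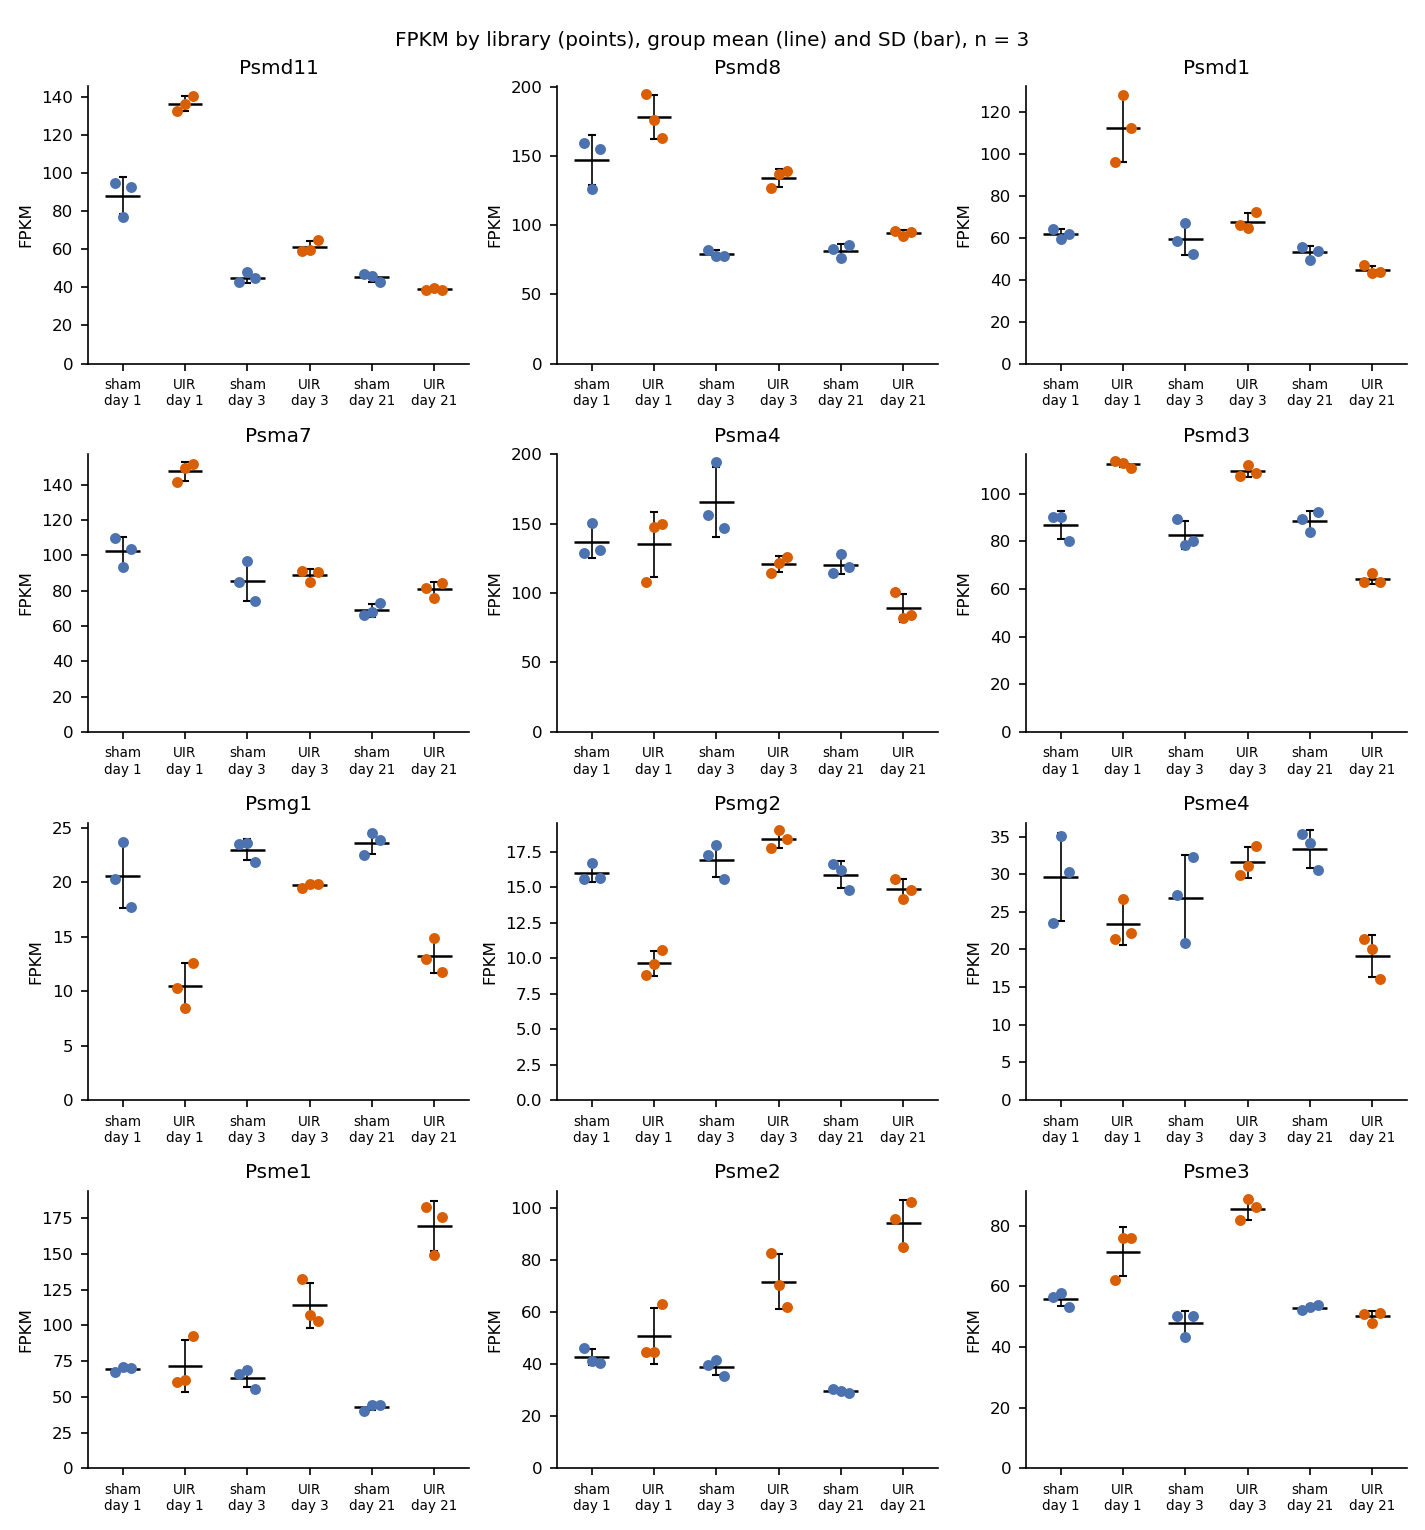
FPKM of 12 proteasome genes in each library (points, blue sham, orange UIR) by treatment and day, with the group mean (line) and SD (bar), n = 3. Psmd11 and Psmd8 are high in both day-1 groups, Psmg1 and Psmg2 are low in UIR kidneys at day 1, and Psme1 and Psme2 reach 149 to 183 and 85.0 to 102 FPKM in UIR kidneys at day 21.

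At day 3 the caps Psme1, Psme2 and Psme3 were higher in UIR kidneys, while 5 of 6 ATPases and 5 of 7 beta subunits did not pass the threshold. By limma 17 of the 45 genes rose (37.8%) and 3 fell (6.67%), where 57.6% of all genes rose and 17.9% fell. On deposited FPKM both shares were lower than those of all genes. The median log2 fold was 0.12, against 0.44 over all genes, and 7 of the 45 lay above that median. Among the 31 subunits 9 rose and 3 fell on deposited FPKM, 21 rose and 0 fell on TPM, 16 rose and 0 fell with quantile normalization, and 0 rose and 24 fell with median-of-ratios scaling. Over the 45 genes 34 rose and 0 fell on TPM, where 68% and 12.9% of all genes did. The counts were 21 and 3 with quantile normalization (34.7% and 33% of all genes). They were 3 and 27 with median-of-ratios scaling (35.3% and 33.6%). The share that rose thus lay above that of all genes on the TPM and quantile scales. Quantile and median-of-ratios scaling bring the median of all genes to 0.01 and 0.03. The direction of the subunits at day 3 therefore depends on the scale.

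Of the 20 calls at day 3 the rises of Psmc3ip, Psme2 and Psme3 held on all 4 scales, and no fall did. Psme3, whose cap is mainly nuclear, was at 50.1, 43.3 and 50.1 FPKM in sham and at 81.7, 88.8 and 86.3 FPKM in UIR kidneys. The groups were far apart and the log2 fold was 0.83 ± 0.08 (limma adjusted p = 1.92e-07). Psme2, of the cap induced by interferon gamma, was at 39.5, 41.7 and 35.4 FPKM in sham and at 82.7, 70.4 and 61.8 FPKM in UIR kidneys. It rose without overlap (0.86 ± 0.13, limma adjusted p = 1.72e-05). Its partner Psme1 was at 66.2, 68.5 and 55.6 FPKM in sham and at 132, 107 and 103 FPKM in UIR kidneys (0.83 ± 0.14, limma adjusted p = 6.22e-05), a rise that did not pass with median-of-ratios scaling (0.31).

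Psmc3ip, the recombination cofactor, had the largest fold of the 45 at day 3. It was at 2.52, 2.24 and 2.50 FPKM in sham and at 7.22, 5.91 and 6.76 FPKM in UIR kidneys, 2.23 times higher on this scale (1.16 ± 0.10, limma adjusted p = 4.57e-08). In the same libraries 4 of 4 proliferation markers (Mki67, Top2a, Ccnb2, Cdk1) rose, and their summed FPKM ran from 1.24 to 1.35 in sham and from 146 to 188 in UIR kidneys. In UIR kidneys at day 21 that sum was 17.5 to 23.7 and Psmc3ip was at 2.23 to 2.85 FPKM, with a log2 fold of 0.15 that did not pass. The part of dividing cells in the Psmc3ip value was not tested.

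Among lid genes at day 3, Psmd8 (0.76), Psmd11 (0.43), Psmd3 (0.40), Psmd14 (0.32) and Psmd7 (0.21) rose, 5 of 8. The counts were 7 rises and no fall on TPM, 4 and none with quantile normalization, and none and 4 with median-of-ratios scaling. The lid median of 0.26 lay below the 0.44 of all genes. In the base Psmd2 rose (0.64) and the ATPase Psmc2 fell by 0.18. Psma1 (0.42) and Psma5 (0.41) rose in the alpha ring and Psma4 fell by 0.44, and in the beta ring Psmb2 rose (0.30) and Psmb7 fell by 0.38. The base chaperones Psmd10 (0.65) and Psmd5 (0.39) rose, as did Psme2b (0.35) and the inhibitor Psmf1 (0.33). Under median-of-ratios scaling Psma1, Psma5, Psmb2, Psmd3, Psmd5, Psmd7, Psmd11, Psmd14, Psme2b and Psmf1 had negative log2 folds.

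Psma4 and Psmb7, the genes with the lowest folds at day 3, are both highly expressed core subunits. Psma4 was at 156, 194 and 147 FPKM in sham and at 115, 122 and 126 FPKM in UIR kidneys, without overlap (limma adjusted p = 0.00568). Psmb7 was at 122, 149 and 129 FPKM in sham and at 104, 97.6 and 104 FPKM in UIR kidneys (limma adjusted p = 0.000457). Sham replicate 2 was the highest of its group for both, and it also had the highest summed 20S level (1502 FPKM, against 1248 and 1239). Neither fall passed on the TPM or the quantile scale. Psmb6 was at 107, 135 and 104 FPKM in sham and at 95.3, 103 and 97.7 FPKM in UIR kidneys. Its groups did not overlap, but the log2 fold of -0.21 ± 0.10 did not pass (limma adjusted p = 0.0541). Psmb5 was at 97.8, 127 and 102 FPKM in sham and at 102, 106 and 109 FPKM in UIR kidneys, so that the groups overlapped (-0.03 ± 0.12, limma adjusted p = 0.825). At day 3, 16 of the 45 genes had all UIR libraries above all sham libraries and 6 had them below, where 59.3% and 19.4% of all genes did.

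Of the 20 calls at day 3, 16 held when any 1 of the 6 libraries compared was left out. Psmc2 lost its call without sham replicate 2 or any 1 of the UIR replicates, and Psmd7 without sham replicate 2 or 3 or any 1 of the UIR replicates. Psmd14 lost it without sham replicate 1 or 3 or UIR replicate 2 or 3, and Psme2b without sham replicate 1 or 3 or UIR replicate 1. The calls of Psmc2, Psmd7 and Psme2b were also lost with the replicate number as a block.

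At day 21 the genes parted: Psme1 and Psme2 reached their highest levels while the catalytic Psmb5 and Psmb7, 4 of 8 lid genes and 3 of 6 ATPases fell (2 and 0 of the lid genes and ATPases on the TPM scale). By limma 11 of the 45 rose (24.4%) and 15 fell (33.3%), where 60.7% of all genes rose and 20.1% fell. On deposited FPKM the share that rose was well under that of all genes and the share that fell above it. The median log2 fold was -0.14, against 0.53 over all genes, and 3 of the 45 lay above that median. Of the 31 subunits 4 rose and 12 fell, with 6 and 4 on the TPM scale. They were 0 and 31 with median-of-ratios scaling and 5 and 11 with quantile normalization. Over the 45 genes 14 rose and 6 fell on TPM, where 66.8% and 16.5% of all genes did. The counts were 3 and 39 with median-of-ratios scaling (38.4% and 36.9% of all genes). They were 8 and 18 with quantile normalization (36.9% and 38.1%). The share that rose stayed below that of all genes on each scale, and on TPM the share that fell did too.

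Psme1 was at 40.1, 44.6 and 44.3 FPKM in sham and at 183, 149 and 176 FPKM in UIR kidneys at day 21. It rose 3.86 times (1.95 ± 0.14, limma adjusted p = 2.97e-09). Psme2 was at 30.3, 29.5 and 28.7 FPKM in sham and at 95.5, 85.0 and 102 FPKM in UIR kidneys, a rise of 3.11 times (1.64 ± 0.13, limma adjusted p = 7.36e-09). Psme2b was at 2.2, 2.1 and 2.44 FPKM in sham and at 7.24, 7.52 and 9.60 FPKM in UIR kidneys (1.48 ± 0.15, limma adjusted p = 1.15e-07). These are the only 3 of the 45 genes with a fold of at least 2, where 39.2% of all genes had one, and their rise held on all 4 scales.

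Markers of other cells moved in the same libraries. All 5 macrophage markers rose at days 3 and 21, and their summed FPKM was 35.6 to 45.7 in sham kidneys of those days, 185 to 393 in UIR kidneys at day 3 and 1226 to 1738 at day 21. Both T cell markers tested rose too, and their sum was 1.11 to 2.12, 2.53 to 16.3 and 42.8 to 57.1 FPKM. All 6 proximal tubule markers fell at both days (5 at day 3 on the TPM scale), from a sum of 3846 to 4747 FPKM in these sham kidneys to 176 to 298 at day 3 and 31.6 to 250 at day 21. Myofibroblast markers (3 of 3) rose at both days and summed to 15.1 to 30.0 FPKM in these sham kidneys, 85.0 to 281 in UIR kidneys at day 3 and 578 to 650.03 at day 21. At day 21 endothelial markers summed to 52.3 to 88.2 FPKM in sham and 145 to 169 in UIR kidneys, and podocyte markers to 73.6 to 93.7 and 196 to 219. None of these markers was listed at 0 in every library of a group. Their part in the values of Psme1, Psme2 and the other genes was not tested.

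In the other direction 6 genes fell at day 21 on all 4 scales. Psmb5 was at 109, 99.1 and 108 FPKM in sham and at 55.8, 62.7 and 63.5 FPKM in UIR kidneys, a fall of 0.79 ± 0.12 (limma adjusted p = 1.85e-05). Psmb7 was at 120, 117 and 122 FPKM in sham and at 79.0, 71.2 and 72.3 FPKM in UIR kidneys, a fall of 0.68 ± 0.08 (limma adjusted p = 8.95e-07). For both the groups were well separated. Psmg1 was at 22.5, 24.6 and 23.9 FPKM in sham and at 12.97, 14.9 and 11.8 FPKM in UIR kidneys, and it fell by 0.80 ± 0.12 (limma adjusted p = 1.48e-05).

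Psme4, the PA200 cap linked to histone turnover, was at 35.4, 34.2 and 30.5 FPKM in sham and at 21.4, 20.0 and 16.1 FPKM in UIR kidneys at day 21. It fell by 0.78 ± 0.16 without overlap (limma adjusted p = 0.000269), the opposite direction to Psme1 and Psme2. The lid subunits Psmd6 (a fall of 0.57) and Psmd3 (a fall of 0.46) complete the genes that fell on every scale. By contrast Psmb6 was at 94.2, 96.9 and 102 FPKM in sham and at 82.4, 89.5 and 86.7 FPKM in UIR kidneys. Its UIR values all lay below its sham values, but the log2 fold of -0.18 ± 0.10 did not pass (limma adjusted p = 0.102). In 4 of 18 alternatives Psmb6 did pass as lower. On the FPKM + 1 scale the UIR level was 0.58 of the sham level for Psmb5, 0.62 for Psmb7 and 0.89 for Psmb6.

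The other calls at day 21 were small. Psmd12 fell by 0.41, Psma4 by 0.44, Psmb4 by 0.25, Psmd1 by 0.25, Psmd11 by 0.21 and Psmd5 by 0.30, and the ATPases Psmc4, Psmc2 and Psmc5 fell by 0.36, 0.34 and 0.26. None of these 9 falls passed on the TPM scale. Psmg4 (0.42), Psmg3 (0.41), Psmd10 (0.36), Psma5 (0.29), Psmf1 (0.24), Psma7 (0.23), Psmd8 (0.21) and Psmb2 (0.17) rose, and with median-of-ratios scaling the log2 fold of each was negative. At day 21, 11 of the 45 genes had all UIR libraries above all sham libraries and 23 had them below, where 62.8% and 21.5% of all genes did.

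Of the 26 calls at day 21, 18 held when any 1 of the 6 libraries compared was left out. Without UIR replicate 3 the number that rose dropped from 11 to 6, and without UIR replicate 1 to 7. The calls of Psmb2 and Psmd8 were lost without any 1 of the UIR replicates, and also without sham replicate 2 or 3 (Psmb2) or sham replicate 1 or 2 (Psmd8). The call of Psma7 was lost without sham replicate 1 or 2 or UIR replicate 1 or 3, that of Psmd1 without sham replicate 1 or 3 or UIR replicate 2 or 3, and that of Psmd11 without sham replicate 1 or 2 or UIR replicate 3. Psmg3 lost its call without sham replicate 3 or UIR replicate 1 or 3, Psmg4 without UIR replicate 3, and Psmb4 without sham replicate 3.

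Between days the UIR effects differed for many of these genes. From day 1 to day 3 the effect increased for 15 genes and decreased for 8 by limma (33.3% and 17.8%), where it increased for 50.1% and decreased for 12.7% of all genes. All 6 of the activators and inhibitor were among the increases, also on the TPM scale, while 3 were on the quantile scale and none with median-of-ratios scaling. The largest increases were those of Psmc3ip (1.13), Psme1 (0.82), Psmg2 (0.79), Psme2b (0.79) and Psmg1 (0.71), and the largest decreases those of Psmd1 (-0.64), Psmb7 (-0.62), Psma3 (-0.60), Psma7 (-0.46) and Psma6 (-0.35). Of these 10 only Psma6 lost its call when 1 library was left out, in 8 of the 12 such fits. Psma6 also lost it with library weights and with the replicate block. Between scales the call was lost for Psme1 with median of ratios (0.25), for Psme2b and Psmg1 with median of ratios (0.37 and 0.16) and quantile normalization (0.059 and 0.33), and for Psma7 and Psma6 with TPM (-0.18 and -0.067) and quantile normalization (-0.28 and -0.27). Psmc3ip, Psmg2, Psmd1, Psmb7 and Psma3 kept theirs on all 4 scales. Over the 45 genes 2 effects increased and 26 decreased with median-of-ratios scaling. The 8 decreases became 4 when sham replicate 2 of day 3 was left out and 5 when sham replicate 2 or 3 of day 1 or UIR replicate 1 or 3 of day 3 was.

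From day 3 to day 21 the effect increased for 3 genes and decreased for 17 (6.67% and 37.8%), where 26.1% and 20.2% of all genes did so. The increases were Psme2b (1.13), Psme1 (1.12) and Psme2 (0.78), and the largest decreases were Psme4 (-1.02), Psmc3ip (-1.01), Psme3 (-0.91), Psmd3 (-0.86) and Psmd2 (-0.79). Of the 8 lid genes 6 decreased, with a median of -0.47 against 0.06 over all genes, and 7 decreased on each of the other 3 scales. The 17 decreases became 11 without sham replicate 3 or UIR replicate 3 of day 3. These 2 comparisons share the day-3 libraries.

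Across the 3 days, 9 of the 45 genes (20.0%) passed in none of the comparisons on deposited FPKM, where 4.27% of all genes did. They were the chaperone Psmd9 and the 26S subunits Psma2, Psmb1, Psmb3, Psmb6, Psmc1, Psmc3, Psmc6 and Psmd13. The pattern depends on the scale, since with median-of-ratios scaling these 8 subunits, like all 31, fell at day 21. Of the 13 that rose at day 1, 5 fell at day 21 (Psmb7, Psmd1, Psmd3, Psmd11 and Psmd12), which is 11.1% of the 45, where 1.63% of all genes had this pattern. The falls of Psmd1, Psmd11 and Psmd12 did not pass on TPM, and Psmb7 and Psmd3 kept both calls on all 4 scales. Psmd8 alone rose at all 3 days, though with median-of-ratios scaling its day-21 value was -0.40. Psmb5 and Psmg1 fell at both day 1 and day 21 and did not pass at day 3 in the fit reported (-0.03 and -0.21). In 4 of 18 alternatives Psmg1 did pass as lower at day 3 (log2 folds -0.72 to 0.06 over the alternatives). Psmb5 passed as lower in 1 and as higher in 2 of them.

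The core and the 19S cap were also compared by their sums. Summed FPKM of the 14 core genes was 1402 ± 32 in sham and 1540 ± 89 in UIR kidneys at day 1, 1330 ± 149 and 1250.3 ± 48 at day 3, and 1166 ± 26 and 1024 ± 41 at day 21 (SD, n = 3). Summed FPKM of the 17 cap genes was 1357 ± 87 and 1614 ± 112 at day 1, 1095 ± 60 and 1249 ± 37 at day 3, and 1024 ± 25 and 883 ± 22 at day 21. The ratio of core to cap, which a common factor on a library cannot alter, was 1.139 to 1.301 in sham and 0.99 to 1.03 in UIR kidneys at day 3, without overlap. The means were 1.21 ± 0.08 and 1.00 ± 0.02 (exact two-sided permutation p = 0.1, the smallest that 3 against 3 libraries allow, adjusted 0.129 over 9 such tests). At day 1 (1.03 ± 0.05 in sham, 0.96 ± 0.05 in UIR kidneys) and day 21 (1.14 ± 0.02 and 1.16 ± 0.03) the groups overlapped. All 45 genes together made up 0.63% of the FPKM sum in sham and 0.71% in UIR kidneys at day 1, 0.52% and 0.68% at day 3, and 0.50% and 0.55% at day 21. UIR lay above sham without overlap on each day (exact two-sided permutation p = 0.1 each, adjusted 0.129). At day 21 the core share was 0.236% in sham and 0.237% in UIR kidneys and the 19S share 0.208% and 0.205%, whereas the 6 activators and inhibitor went from a summed 171 to 175 FPKM in sham to 323 to 371 FPKM in UIR kidneys.

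**Figure D3:**
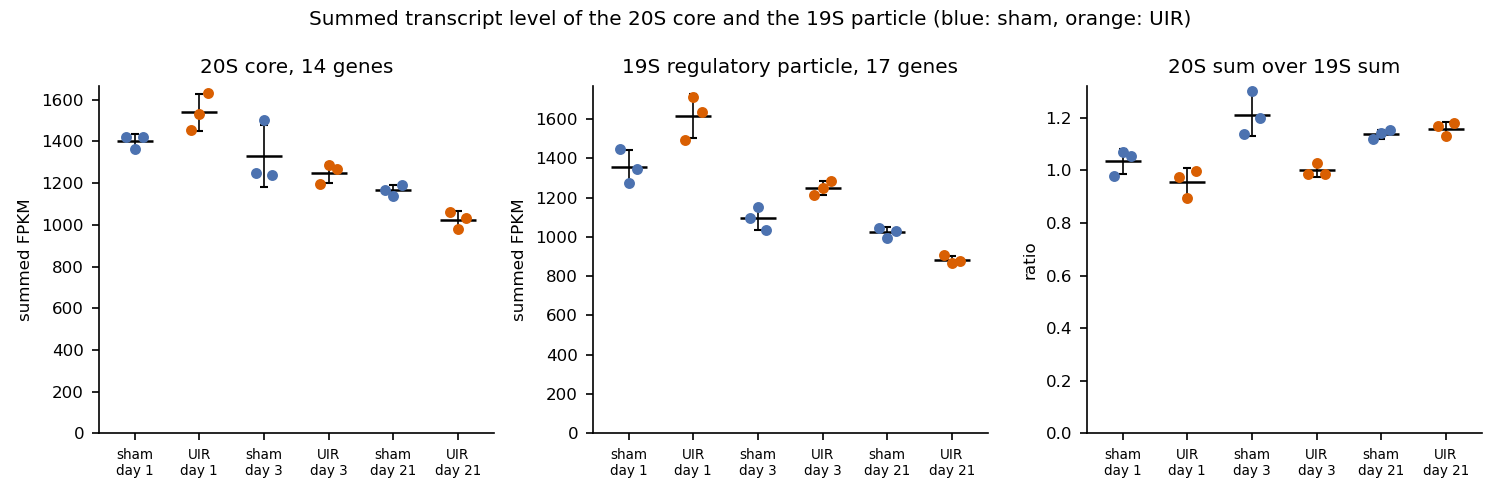
Summed FPKM of the 14 core genes and the 17 cap genes, and their ratio, in each library (points, blue sham, orange UIR) with the group mean and SD, n = 3. The ratio of UIR kidneys at day 3 (0.99 to 1.03) lies below that of sham kidneys of the same day (1.139 to 1.301).

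The catalytic genes were set beside the immunoproteasome genes that replace them. Psmb8, Psmb9 and Psmb10 together made up 7.68% ± 0.77 of the summed FPKM of the 6 catalytic genes in sham and 6.06% ± 0.73 in UIR kidneys at day 1. The share was 5.08% ± 1.23 in sham and 25.5% ± 7.1 in UIR kidneys at day 3, and 4.43% ± 0.85 and 44.2% ± 3.1 at day 21 (SD, n = 3). The groups did not overlap on any day (exact two-sided permutation p = 0.1 at each day, adjusted 0.129), and the share lay lower in UIR kidneys at day 1 and higher at days 3 and 21. Within the UIR day-3 group it ran from 18.6% to 32.8%. The pairs of genes did not move alike at day 1. Psmb8 over Psmb5 was higher in UIR kidneys (0.0933 to 0.1195, against 0.0655 to 0.0828 in sham). Psmb9 over Psmb6 was lower (0.0172 to 0.0262, against 0.06 to 0.0705). Psmb10 over Psmb7 was lower too (0.0516 to 0.0769, against 0.0929 to 0.1307).

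Psmb8 was at 4.34, 6.30 and 5.43 FPKM in sham and at 82.6, 69.6 and 92.2 FPKM in UIR kidneys at day 21, so that it lay above Psmb5 in each of these UIR libraries (ratio 1.35 ± 0.21, against 0.05 ± 0.01 in sham). Psmb9 fell short of Psmb6 (0.55 ± 0.08) and Psmb10 of Psmb7 (0.64 ± 0.10). By limma Psmb8, Psmb9 and Psmb10 rose by 3.70, 3.59 and 2.69 at day 21 and by 2.26, 1.92 and 2.50 at day 3, and also on the other 3 scales. At day 1 Psmb9 fell by 1.18 and the others did not pass. The macrophage and T cell sums given above moved with this share, and their part was not tested.

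**Figure D4:**
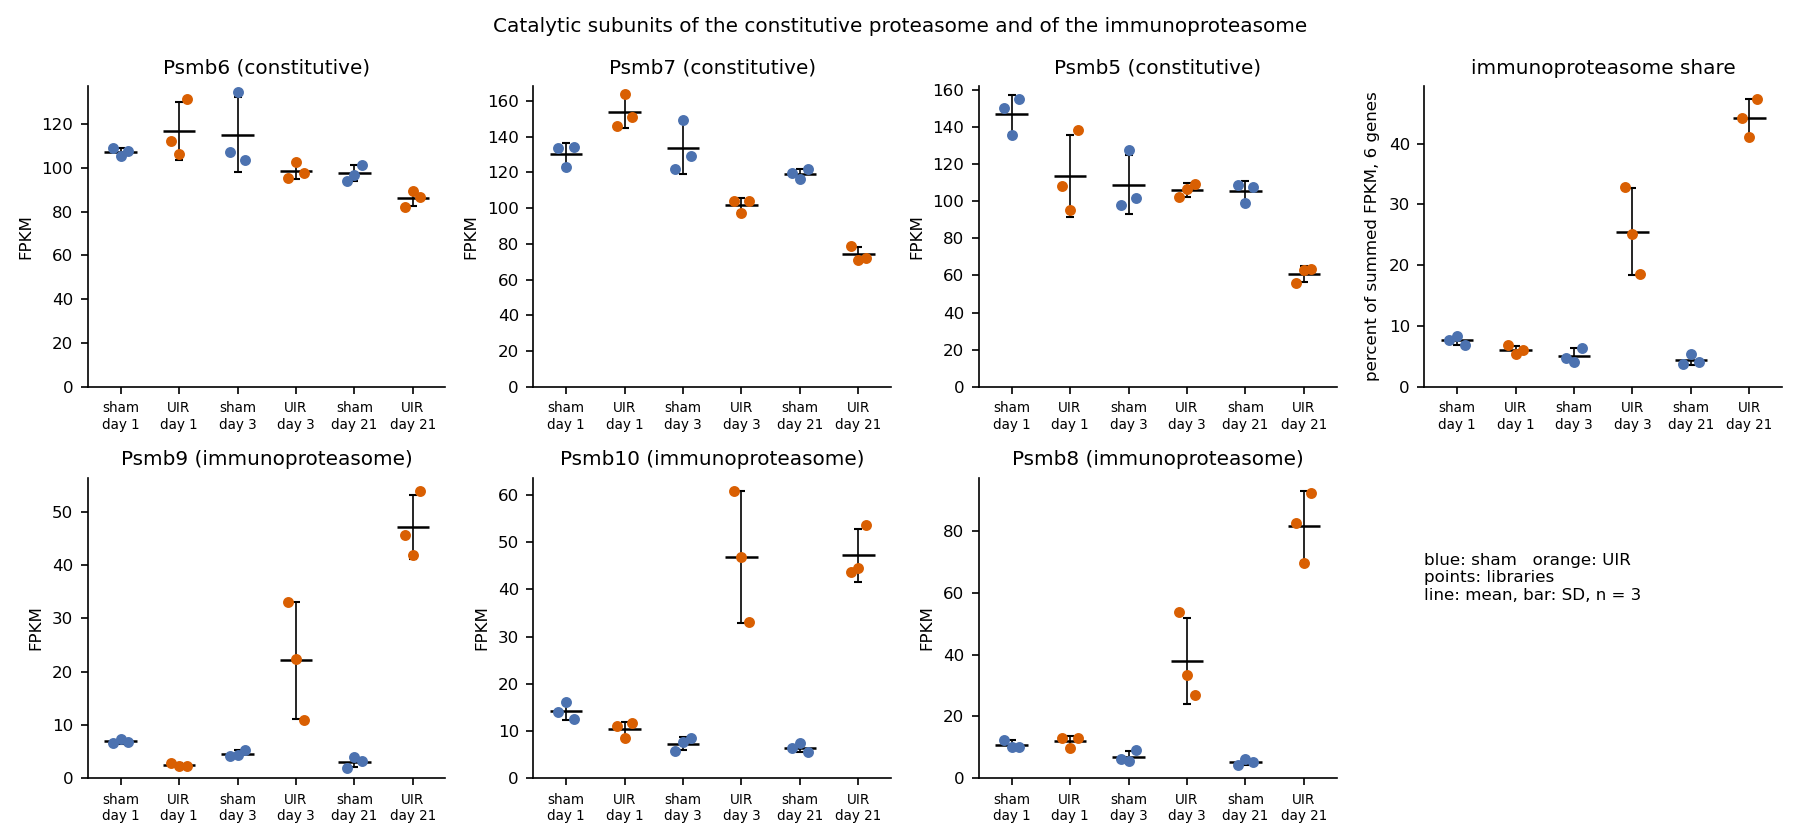
FPKM of the constitutive catalytic genes (top) and of the immunoproteasome genes that replace them (below) in each library, and the share of the immunoproteasome genes in the sum of all 6 (top right), with the group mean and SD, n = 3. In UIR kidneys at day 21 the share is 41.1% to 47.3%, and it is 3.77% to 5.39% in sham kidneys of that day.

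Other genes of the pathway came from lists of proteasome factors, regulators, ubiquitin genes and shuttles. On deposited FPKM their counts stand against shares of all genes that rose and fell of 28.5% and 31.1% at day 1. These shares were 57.6% and 17.9% at day 3, and 60.7% and 20.1% at day 21. With median-of-ratios scaling they were 35.3% and 33.6% at day 3 and 38.4% and 36.9% at day 21. With quantile normalization they were 34.7% and 33% at day 3 and 36.9% and 38.1% at day 21. On deposited FPKM 6 of 10 further proteasome factors rose and 2 fell at day 1 (the same counts on every scale), 4 and 1 at day 3, and 2 and 3 at day 21. With median-of-ratios scaling the counts were 2 and 7 at day 3 and 0 and 9 at day 21, and with quantile normalization 3 and 1, and 2 and 7. Adrm1, the ubiquitin receptor of the cap, had log2 folds of 0.39, 0.02 and -0.44 on days 1, 3 and 21, rising on day 1 and falling on day 21. Usp14, a deubiquitinase on the cap, rose on each day (0.74, 0.84 and 0.25), but at day 21 its value was -0.32 with median-of-ratios scaling and -0.26 on the quantile scale. Pomp, the core maturation factor, rose at day 1 (0.43) and did not pass later (-0.21 and 0.06). Akirin2, which carries proteasomes into the nucleus, rose at day 1 (0.73), and Fbxo7, a ubiquitin ligase subunit that binds Psmf1, fell on each day and each scale (-0.37, -1.13 and -1.46 on FPKM).

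Among 9 genes of NRF1 and related control, 4 rose and 1 fell at day 1, and 6 rose and 1 fell at days 3 and 21 (3 and 4 at both days with median-of-ratios scaling, 4 and 4 with quantile normalization), so that the rises at the later days were near the share of all genes. Nfe2l1 itself rose by 0.42 ± 0.08, 0.91 ± 0.08 and 1.26 ± 0.08 on days 1, 3 and 21, and Nfe2l2 by 0.56, 0.98 and 1.10, each also on the other 3 scales. Ngly1, the enzyme that strips sugars from NRF1, did not pass at day 1 (-0.20) and fell at days 3 and 21 (-0.74 and -0.78), while the NRF1 protease gene Ddi2 rose at day 3 (0.88), though it did not pass with median-of-ratios scaling (0.38). The 6 members with the antioxidant response core in the promoter had median log2 folds of 0.08, -0.01 and -0.33 on the 3 days, and the 32 without it 0.07, 0.23 and -0.08. These are descriptions of 6 genes and were not tested.

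Of 6 ubiquitin and activating enzyme genes 4 rose and none fell at day 1. The counts were 3 and 2 at day 3, and 3 and 1 at day 21. With median-of-ratios scaling they were 5 and 0, 2 and 3, and 1 and 4 on the 3 days. With quantile normalization they were 3 and 0, 3 and 0, and 2 and 2. Uba1, the main activating enzyme, rose on each day (0.47, 0.86 and 0.25, but -0.37 at day 21 with median-of-ratios scaling). Among 14 genes of ubiquitin shuttles and of p97 with its cofactors, 8 rose and none fell at day 1, 10 rose and none fell at day 3, and 6 rose and 4 fell at day 21, with 3 and 6 at day 3 and 2 and 10 at day 21 under median-of-ratios scaling and 9 and 2, and 2 and 6, under quantile normalization. Vcp, the p97 segregase that feeds substrates to the proteasome, rose at day 1 (0.41) and day 3 (0.29; -0.25 with median-of-ratios scaling) and fell at day 21 (-0.39). Zfand2a, a heat shock and arsenite responsive partner of the 19S cap, rose most at day 1 (2.10).

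**Figure D5:**
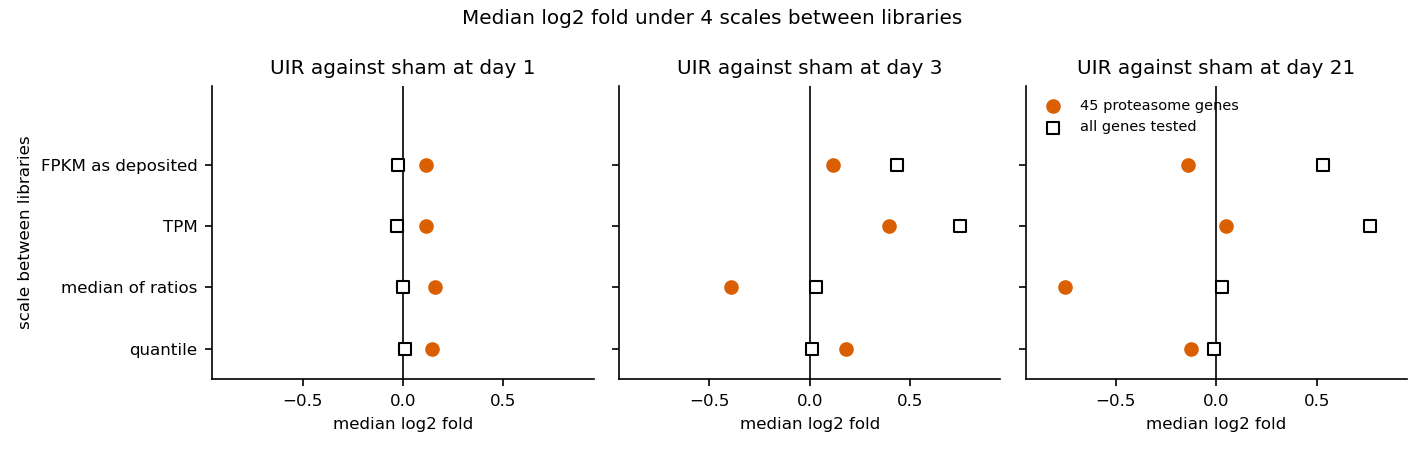
Median log2 fold, UIR against sham, of the 45 proteasome genes (orange) and of all genes tested (open squares) at 3 days on 4 scales between libraries. At day 1 the members' median is 0.11 to 0.16 on every scale, at day 3 it runs from -0.39 to 0.40, and at day 21 from -0.75 to 0.05.

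The scale between libraries therefore matters at days 3 and 21. Of all calls, 76.3% were increases at day 3 on deposited FPKM, 84.1% on TPM, 51.3% with median-of-ratios scaling and 51.2% with quantile normalization. At day 21 these shares were 75.2%, 80.2%, 51.0% and 49.2%. The median log2 fold of all genes was 0.44, 0.75, 0.03 and 0.01 on these scales at day 3 and 0.53, 0.76, 0.03 and -0.01 at day 21. Relative to it, the 45 genes lay lower at day 3 by 0.32 on FPKM, 0.35 on TPM and 0.42 on median of ratios, and higher by 0.17 on the quantile scale. At day 21 they lay lower on each scale, by 0.67, 0.72, 0.78 and 0.12, and at day 1 they lay higher on each, by 0.14 on FPKM and 0.13 to 0.16 on the others. On all 4 scales 13 rises and 5 of 6 falls of day 1 kept their call, 3 of 20 calls of day 3, and 9 of 26 of day 21. Calls kept on all 4 scales, or with 1 library left out, were not counted over all genes.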

How the data were processed

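The authors deposited one table of FPKM per gene for 18 kidney libraries (6 groups of 3). The submitters' processing notes name HISAT2 2.0.4, Bowtie2 2.2.5, RSEM 1.2.12 and mm9, with no roles. Counts and read depth were not used here, so no counting error is given. No value column was unused (0) and no pair of libraries was identical (0). Labels call the replicates biological without naming animals, so p-values measure the spread between these libraries.

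Values were taken as log2(FPKM + 1) for 14716 genes with FPKM of at least 1 in at least 3 libraries. Folds are on that scale and understate changes of low genes. One limma fit (limma 3.58.1, R 4.3.3) had a mean per group over all 18 libraries and a variance trend. Tests were two-sided with Benjamini-Hochberg adjustment and a threshold of 0.05. The fit was tested on simulated data. "Rose" and "fell" mean a call. TPM was FPKM divided by its sum. Ratios of 3 against 3 libraries had exact permutation tests (python 3.11.15). Promoters are RefSeq's for GRCm38.p6, another build than mm9, and only Entrez Gene IDs link these.

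The members and lists were chosen with earlier results of these data known. Library values are given for the catalytic genes and for the 3 highest and 3 lowest log2 folds of each comparison of UIR with sham (Psme3, Psmd8 and Psmd4 were added after their values were seen), and the 5 largest values in each direction are named for the other comparisons. Alternatives were the pseudocount, the filter, TPM, median-of-ratios and quantile scaling, the libraries fitted, library weights, the variance trend, a replicate block, the sham control and each library of the groups compared left out.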

Additional observations from a re-analysis of the deposited data

Results flagged for a closer look

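The UIR effect differed between days by an interaction term of limma (Benjamini-Hochberg adjusted over all genes) in 18 cases, the 5 largest in each direction. From day 1 to day 3 the log2 effect was higher for Psmc3ip by 1.13 ± 0.15 (adjusted p = 7.33e-06), for Psme1 by 0.82 ± 0.20 (0.00231), for Psmg2 by 0.79 ± 0.11 (1.74e-05), for Psme2b by 0.79 ± 0.21 (0.00375) and for Psmg1 by 0.71 ± 0.17 (0.00206). With median-of-ratios scaling the values for Psme1 (0.25), Psme2b (0.37) and Psmg1 (0.16) did not pass, nor did those for Psme2b (0.059) and Psmg1 (0.33) with quantile normalization. Psmg1 and Psmg2 were low in UIR kidneys at day 1 and did not pass at day 3 in the fit reported. Psmg1 passed as lower at day 3 in 4 of 18 alternatives, and Psmg2 as higher in 2 and as lower in 2.

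Over the same interval it was lower for the base scaffold Psmd1 (-0.64 ± 0.15, adjusted p = 0.00128), for the catalytic Psmb7 (-0.62 ± 0.11, 0.000229) and for the alpha subunits Psma3 (-0.60 ± 0.13, 0.000816), Psma7 (-0.46 ± 0.13, 0.00551) and Psma6 (-0.35 ± 0.14, 0.0381). Those of Psma7 and Psma6 did not pass with TPM (-0.18 and -0.067) or quantile normalization (-0.28 and -0.27). That of Psma6 also did not pass with library weights or the replicate block.

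From day 3 to day 21 the effect was higher for Psme2b (1.13 ± 0.21, adjusted p = 0.000427), Psme1 (1.12 ± 0.20, 0.000355) and Psme2 (0.78 ± 0.18, 0.00265). It was lower for Psme4 (-1.02 ± 0.22, 0.00153), Psmc3ip (-1.01 ± 0.15, 4.89e-05), Psme3 (-0.91 ± 0.12, 1.83e-05), the lid subunit Psmd3 (-0.86 ± 0.10, 6.77e-06) and the scaffold Psmd2 (-0.79 ± 0.12, 0.000103). No test bears on why these effects differ.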

How the results depend on the processing

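Over all alternatives 2740 values of single genes kept direction and side of the threshold, 118 lost a call, 127 gained one and 57 changed sign with a call. Depth is unknown, and 3 libraries per group limit the precision.

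Numbers of genes that rose and fell and their median log2 fold moved mainly with the scale. At day 1 the later sham control gave 29 rises and a median of 0.32. At day 3 TPM gave 34 rises, 0 falls and 0.40, median of ratios 3, 27 and -0.39, and quantile normalization a median of 0.18. At day 21 TPM gave 6 falls and 0.048, median of ratios 3 rises, 39 falls and -0.75, and library weights 23 falls. For day 3 minus day 1, TPM gave 23 increases, 3 decreases and 0.30, and median of ratios 2, 26 and -0.55. Decreases there were 4 with quantile normalization and 5 both with only the groups compared and with the replicate block. For day 21 minus day 3 the median was -0.28 with TPM and -0.28 with median of ratios. Between sham groups the stricter filter left 0 higher genes, TPM gave a median of -0.24, median of ratios 6 higher, 8 lower and -0.0084, quantile normalization 4 higher and library weights 29 lower.

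With the later sham control, day-1 log2 folds changed sign for Psma5 (0.47), Psmb5 (0.075), Psmc3ip (-0.36), Psmc5 (0.19), Psmd4 (0.56) and Psmf1 (0.37). With TPM at day 3 they did for Psma6 (0.22), Psmb5 (0.25), Psmc2 (0.10) and Psmc5 (0.24). With median of ratios at day 3 they did for Psma1 (-0.10), Psma2 (-0.52), Psma5 (-0.12), Psma7 (-0.46), Psmb2 (-0.23), Psmc1 (-0.47), Psmc3 (-0.50), Psmc4 (-0.48), Psmd1 (-0.33), Psmd11 (-0.10), Psmd12 (-0.52), Psmd13 (-0.36), Psmd14 (-0.20), Psmd3 (-0.13), Psmd4 (-0.46), Psmd5 (-0.12), Psmd7 (-0.32), Psmd9 (-0.43), Psme2b (-0.062), Psmf1 (-0.17) and Psmg2 (-0.39). At day 21 it did for Psma3 (-0.58), Psma5 (-0.31), Psma7 (-0.39), Psmb2 (-0.44), Psmc3ip (-0.28), Psmd10 (-0.22), Psmd7 (-0.59), Psmd8 (-0.40), Psmd9 (-0.56), Psmf1 (-0.34), Psmg3 (-0.14) and Psmg4 (-0.15). Quantile normalization did so at day 3 for Psmb4 (0.18), Psmb5 (0.28), Psmd9 (-0.43), Psme2b (-0.32), Psmf1 (-0.14) and Psmg2 (-0.26), and at day 21 for Psmb3 (0.25), Psmb4 (0.037), Psmc3ip (-0.79), Psmd10 (-0.10), Psmd9 (-0.63), Psmf1 (-0.31), Psmg3 (-0.26) and Psmg4 (-0.17). The cause of these sign changes was not tested.

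Leaving out 1 library of the groups compared at a time, rises ranged from 9 to 15, falls from 4 to 6 and the median from 0.07 to 0.12 at day 1. At day 3 they ranged from 15 to 19, 2 to 4 and 0.06 to 0.16, and at day 21 from 6 to 9, 13 to 17 and -0.17 to -0.09. For day 3 minus day 1 increases were 14 to 16, decreases 4 to 10 and the median -0.02 to 0.06, with 4 decreases when sham replicate 2 of day 3 was left out and 5 when UIR replicate 1 or 3 of day 3 or sham replicate 2 or 3 of day 1 was. For day 21 minus day 3 they were 3, 11 to 19 and -0.25 to -0.15, and between sham groups 2, 12 to 22 and -0.20 to -0.15.

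Same-numbered libraries share only a number (correlations of their deviations -0.07 to 0.11). With the replicate block rises and falls were 13 and 6 at day 1, 15 and 2 at day 3, 10 and 14 at day 21, 14 and 5 for day 3 minus day 1, 3 and 16 for day 21 minus day 3, and 2 and 17 between sham groups. Sham day-3 replicate 2 and UIR day-1 replicate 1 were also left out together, chosen after seeing the data. This ended the calls of Psmd8 at day 1, Psmc2 at day 3 and Psma6 for day 3 minus day 1. It gave 20 decreases for day 21 minus day 3.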
